A study of Mus musculus with 4 samples.

Results

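CHD4, a chromatin remodelling ATPase of the NuRD complex, was mapped in mouse spermatogonial cells by CUT&Tag, and the 9 intervals that the peak list assigns to 7 genes of Polycomb complexes and of other chromatin remodellers are described here. The genes are the Polycomb genes Ezh1, Ezh2 and Bcor and the remodeller genes Chd2, Chd7, Smarca2 and Arid1b, and every row of the list that carries one of these symbols was taken. These were 10 rows, of which 2 were summits of a single Ezh1 interval, so that 9 of the 1849 intervals of the list belong to the 7 genes: 4 to Polycomb genes and 5 to remodeller genes. The genes were chosen by the presence of an interval in this list, so that an interval's presence, its fold and its q value are given as a description without a test.

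The samples were 2 libraries made with an antibody to CHD4 and 2 made with a rabbit anti-mouse IgG that carries horseradish peroxidase, all from C57BL/6 mice, with 100000 cells per assay taken from digested testes. No genetic change or treatment is named for either group, and neither the age of the animals nor the step that enriched the spermatogonial cells is stated in the labels. The list is 1 comparison of CHD4 with IgG without a value for any library, so no value below has an error between replicates. In CUT&Tag, a transposase tethered to the antibody cuts and tags the chromatin around the bound protein, and the tagged fragments are sequenced. A peak has 1 or more summits, and its fold is the CHD4 signal at a summit plus 1 over the background taken from IgG plus 1, which lowers the fold most where the background is low. The numbers of CHD4 fragments at a summit and of fragments expected there from IgG, called the IgG expectation here, were recovered from the fold and p value on a model of the peak caller. The cell type label could not be checked against marker genes, since a peak list holds no expression values.

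Polycomb repressive complex 2 (PRC2) places a repressive methyl mark on histone H3, and EZH1 and EZH2 are its alternative catalytic subunits. Polycomb repressive complex 1 (PRC1) ubiquitinates histone H2A, and BCOR is the scaffold of one of its variant forms. CHD2 and CHD7 are remodelling ATPases of the same chromodomain helicase family as CHD4. SMARCA2, also called BRM, is one of the alternative ATPases of the SWI/SNF complexes, which move and evict nucleosomes, and ARID1B is a DNA-binding subunit of one form of these complexes. In the male germline Polycomb complexes are known for holding somatic and late germ cell genes silent until they are needed.

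The distance between an interval and a promoter differs widely among these genes, and the sequence just before the transcript start is shown for 3 of them: Smarca2, where an interval adjoins it, Ezh1, where the interval lies in the gene close behind it, and Ezh2, where both intervals lie far upstream. Each sequence covers the 250 bases before a RefSeq transcript start (build GRCm38.p6), 5′ to 3′ on the strand of the gene, at chr19:26604910-26605159 (plus strand) for Smarca2, chr11:101226464-101226713 (minus strand) for Ezh1 and chr6:47595031-47595280 (minus strand) for Ezh2. This start can differ from the outer 5′ boundary of the gene used below. That boundary, 26605073 for Smarca2 and 47595270 for Ezh2, falls inside the sequence shown. By it, part of the Smarca2 sequence and most of the Ezh2 sequence lie within the gene. The start that the list assigns to Smarca2 also falls inside its sequence. At Ezh1 the sequence adjoins the boundary. Capitals mark matches on either strand to the motif GGGCGG or the motif CCAAT, and CACGTG and also TGACTCA would be marked likewise.
Smarca2: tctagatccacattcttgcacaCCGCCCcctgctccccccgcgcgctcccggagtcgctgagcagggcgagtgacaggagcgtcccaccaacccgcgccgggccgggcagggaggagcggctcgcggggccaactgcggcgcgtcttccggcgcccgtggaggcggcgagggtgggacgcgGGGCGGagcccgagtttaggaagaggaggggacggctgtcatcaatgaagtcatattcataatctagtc
Ezh1: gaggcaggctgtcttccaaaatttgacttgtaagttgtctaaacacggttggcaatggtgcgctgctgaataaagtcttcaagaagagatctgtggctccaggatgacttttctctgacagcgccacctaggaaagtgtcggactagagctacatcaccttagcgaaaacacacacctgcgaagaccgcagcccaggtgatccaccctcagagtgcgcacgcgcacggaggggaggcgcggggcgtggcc
Ezh2: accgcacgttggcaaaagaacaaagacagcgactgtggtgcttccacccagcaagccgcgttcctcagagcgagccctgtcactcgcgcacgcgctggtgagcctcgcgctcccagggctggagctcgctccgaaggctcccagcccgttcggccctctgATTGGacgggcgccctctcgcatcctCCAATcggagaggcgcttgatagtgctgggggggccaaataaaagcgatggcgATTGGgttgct

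All 3 sequences were richer in CpG than the median promoter. The ratio of observed to expected CpG was 0.962 at Smarca2, 0.738 at Ezh1 and 0.91 at Ezh2, against a median of 0.378 over the 27025 genes with a promoter sequence. Smarca2 had 2 matches to GGGCGG, a motif that 32.9% of those promoters hold. Ezh2 had 3 matches to CCAAT, which 34.5% hold. Ezh1 had no match to any of the 4 motifs given above. CACGTG is held by 6.05% of promoters and TGACTCA by 4.43%, and neither had a match at these 3 genes. GGAA was also searched but is not marked, since 93.4% of promoters hold it. This motif had 2 matches at each of the 3 genes. A promoter sequence was found for 5 of the 7 genes, and those of Arid1b and Bcor had CpG ratios of 1.03 and 0.69. The sequence of the Smarca2 interval itself is not printed, but its last base lies 3 bases before the first base shown.

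The intervals of the Polycomb genes lay beside or away from promoters, and those of the remodeller genes ranged from a promoter to 464 kb away. By the distances in the list, 0 of 4 Polycomb intervals and 2 of 5 remodeller intervals were within 1 kb of the assigned transcript start, so 2 of 9 in all, against 34.1% of the whole list. The annotated span of the gene held 2 of 4 Polycomb and 2 of 5 remodeller intervals, while 54.3% of all intervals overlap the gene they are named for. The median distance to the assigned start was 33.1 kb for Polycomb intervals and 5.34 kb for remodeller intervals, with ranges of 1.61 to 59.3 kb and 0.143 to 464 kb. The Polycomb range lies inside the remodeller range, and with 4 and 5 intervals no difference in position between the classes was tested.

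**Figure D1:**
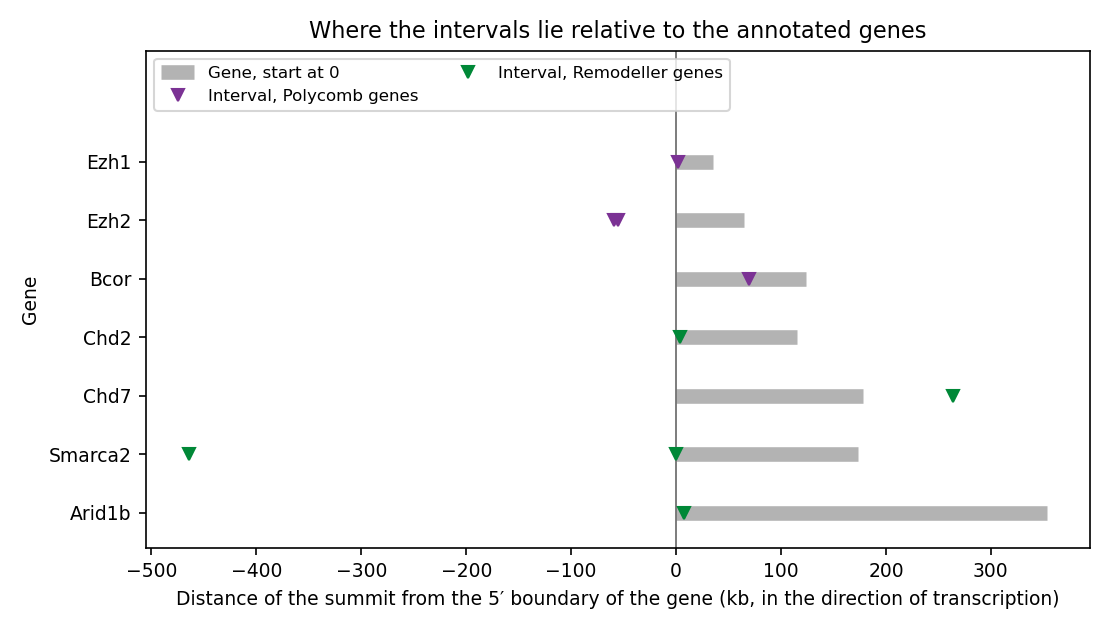
Position of the summit of each of the 9 intervals relative to the outer 5′ boundary of its gene in the RefSeq gene table, in kb along the direction of transcription. Grey bars are the genes, which begin at 0; the intervals of Ezh2 lie 55.8 and 59.4 kb before the gene, that of Chd7 lies 86.2 kb behind its end, and 1 Smarca2 interval lies 464 kb before the gene.

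Ezh1 had the highest deposited fold of the set. Its interval (chromosome 11, 101224387 to 101224821, mm10) covered 435 bp with 2 summits 223 bp apart, and lay inside the gene, 1605 bp downstream of the assigned start, in the class of promoters at 1 to 2 kb. The fold of CHD4 over IgG, a value of the authors' peak caller, was 5.95 at the stronger summit and 5.68 at the weaker one. The summits held 20 and 19 CHD4 fragments over the same IgG expectation of 0.609 fragments, with exact 95% Poisson intervals of 12.2 to 30.9 and 11.4 to 29.7. The q value was 0.000313 at both, and the 2 summits differ by 1 fragment. Ezh1 was the only one of the 7 genes with an interval of several summits, a feature of 182 of the 1849 intervals. Its fold ranked 365 of 1849, and the other 8 intervals of the set lay below the median fold of the list, 4.76. Both statements hold for the fold with the added 1. Without it, a choice made after seeing the data, the ratio of scaled CHD4 fragments to the IgG expectation was 14.1 at Ezh1 and 14.9 at Bcor, and 6 of the 9 intervals, from 9.4 to 14.9, lay above the list's median of 7.72, with 3, from 4 to 4.53, below it.

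Ezh2 had 2 intervals, and neither touched the gene. They lay 55.6 and 59.3 kb upstream of the assigned start and 3.44 kb from each other (chromosome 6, 47650975 to 47651159 and 47654603 to 47654819). The nearer interval overlapped the long non-coding RNA gene Gm40371. It had a fold of 3.81 from 41 CHD4 fragments (29.4 to 55.6) over an expectation of 3.88, and a q value of 0.0016. The farther interval lay within Gm40369, a gene listed as protein-coding, and 102 bp from Rn4.5s, a gene listed as ribosomal RNA. Its fold was 4.67 from 17 fragments (9.9 to 27.2) over an expectation of 0.775, with a q value of 0.0106. The name Ezh2 thus reflects the nearest start among the transcripts that the annotation of the list used, while the gene table used here has other genes at both positions. The handling of multiply mapped reads is not stated by the labels.

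Bcor carried 1 of the 19 intervals on the X chromosome. It lay inside the gene (chromosome X, 12091097 to 12091289), in the first of 13 introns. The list gives a distance of 10.5 kb upstream of a start, which belongs to a shorter Bcor transcript, and the summit was 69.4 kb downstream of the outer 5′ boundary of the gene. The long non-coding RNA gene Gm46687 lay 1.2 kb away. The fold was 4.57 from 12 CHD4 fragments (6.2 to 21) over an expectation of 0.346, the lowest in the list. That lowest value is found at 131 summits and is not particular to Bcor, and the ratio of 14.9 given above rests on it. The q value was 0.0115. No other interval lay within 2868 kb, the distance to one named for Lancl3. The fold and p value of the Bcor summit were found at 20 summits of the list, this one included.

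Of the CHD genes, Chd2 had the smallest q value of the 9 intervals and Chd7 shared the largest. The Chd2 interval (chromosome 7, 73537838 to 73538044) had a q value of 8.84e-05. Its fold was 3.88 from 52 CHD4 fragments (38.8 to 68.2) over an expectation of 5. The list places it 217 bp upstream of a start and in the promoter class. That start belongs to a shorter transcript, and the summit lay 3.76 kb inside the gene when measured from its outer 5′ boundary. The long non-coding RNA gene Chaserr, known as a repressor of Chd2 in cis, lay 1.75 kb from the interval on the side of the 5′ end of Chd2.

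Chd7 was named for an interval 99.3 kb downstream of the assigned start (chromosome 4, 8954580 to 8954773). The summit lay 86.2 kb beyond the 3′ end of the gene and 264 kb from its outer 5′ boundary, and it overlapped no gene of the table used here. Its closest neighbour was the pseudogene Rps18-ps2 at 12.9 kb. The fold was 4.49 from 12 CHD4 fragments (6.2 to 21) over an expectation of 0.369, with a q value of 0.0149.

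The Smarca2 intervals lay at the promoter and 464 kb upstream of it. The promoter interval (chromosome 19, 26604678 to 26604907) ended 143 bp before the assigned start and 3 bases before the sequence shown above. It had the most CHD4 fragments of the set, 56 (42.3 to 72.7), over the highest expectation of the set, 6, and the lowest fold, 3.57, with a q value of 0.000127. The interval overlapped Gm52395, a long non-coding RNA gene. At the upstream interval (chromosome 19, 26140582 to 26140796) the fold was 4.51, from 14 fragments (7.65 to 23.5) over 0.554, with a q value of 0.0118. It overlapped no gene, and its nearest neighbours in the table were the long non-coding RNA gene 1700048O14Rik at 94.1 kb and the pseudogene Gm25176 at 120 kb. The Smarca2 intervals were each other's nearest neighbours in the list.

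Arid1b had 1 interval inside the gene (chromosome 17, 5001772 to 5002038), 5.34 kb downstream of the assigned start and 7.65 kb from the outer 5′ boundary. The annotation puts it in the first intron of a transcript with 2 introns. The fold of 4.49, the q value of 0.0149, the 12 CHD4 fragments and the expectation of 0.369 were the same as at Chd7, and 19 summits of the list, these 2 included, had that fold and p value. The nearest other interval, named for Synj2, was 974 kb away. Of the 9 intervals, 7 had no other interval within 100 kb, against 57.4% of the whole list, and the exceptions were the 2 of Ezh2.

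The folds of Polycomb and remodeller intervals overlapped. The median fold was 4.62 over the 4 Polycomb intervals, with a range of 3.81 to 5.95, and 4.49 over the 5 remodeller intervals, with a range of 3.57 to 4.51, a difference of 0.13. The whole list had a median of 4.76 and a range of 1.75 to 13.6. Ezh1, the farther Ezh2 interval and Bcor lay above the highest remodeller value, and the nearer Ezh2 interval lay below 4 of the 5 remodeller values. If only the counting error of the CHD4 fragments is considered, the 95% intervals of the 9 folds share the range from 3.88 to 4.60. Without the added 1 the intervals of the ratios share no value: the lower bound at Ezh1 was 8.6 and the upper bound at the Smarca2 promoter 5.2, again with no error of the IgG expectation included.

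**Figure D2:**
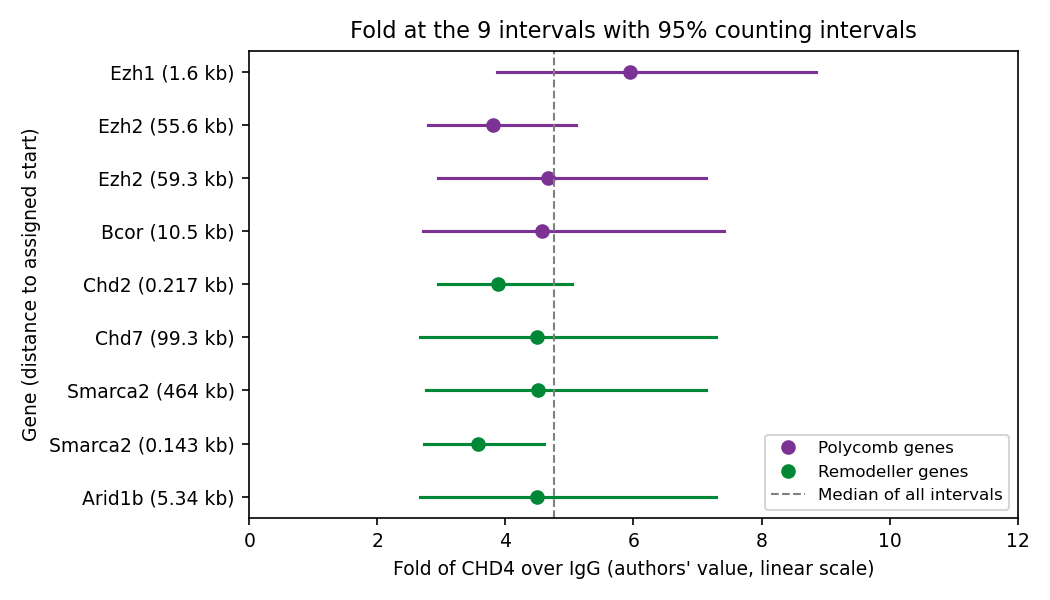
Fold of CHD4 over IgG at each interval of the Polycomb and remodeller genes, with the distance to the assigned start after the gene name. Points are the authors' values and lines the 95% intervals from the Poisson error of the CHD4 fragments alone; the dashed line is the median of all 1849 intervals, 4.76, and 8 of the 9 points lie below it, while 6 of the 9 lie above the list's median when the added 1 is left out.

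Widths were small in both classes. The median was 205 bp for Polycomb intervals and 215 bp for remodeller intervals, against 280 bp for the whole list, and 8 of the 9 lay in the narrower part of the list, below its median. The Ezh2 interval of 185 bp was within 1 bp of the narrowest in the list, at 184 bp, and Ezh1 was the exception at 435 bp. The median −log10 q was 2.39 for Polycomb and 1.93 for remodeller intervals, against 2.90 for the list. A q of at most 0.01 was met by 2 of 4 Polycomb and 2 of 5 remodeller intervals, against 77.3% of all intervals. The 4 were those of Ezh1, Chd2, the Smarca2 promoter and the nearer Ezh2 interval.

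The 9 intervals fell into a larger set of few CHD4 fragments over little IgG and a smaller set with more of both. In 6 intervals, at Ezh1, Bcor, Chd7, Arid1b, the farther Ezh2 position and the distal Smarca2 position, 12 to 20 CHD4 fragments stood over an expectation below 1. In the other 3, at Chd2, the Smarca2 promoter and the nearer Ezh2 position, 41 to 56 fragments stood over 3.88 to 6. At least 20 CHD4 fragments supported 2 of 4 Polycomb and 2 of 5 remodeller intervals, against 74.4% of the list. The 3 intervals with more fragments had the lowest folds of the set, 3.57 to 3.88, and 2 of them had its smallest q values, and among the 3 smallest q values only that of Ezh1 came with a fold above the median of the list. In the whole list the median fold was 5.52 in the 546 intervals with an expectation below 1, 4.79 in the 847 with 1 to 3 and 3.51 in the 456 above 3, with medians of 17, 27 and 55 CHD4 fragments. The middle class was the most common in the list, and it held none of the 9 intervals. Its limits of 1 and 3 lie inside the gap in the members' own values, from 0.775 to 3.88. The empty class therefore follows from where the limits were set and is only a description. The lowest number of CHD4 fragments found at any interval was 12, and Bcor, Chd7 and Arid1b were among the 49 intervals at that number.

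**Figure D3:**
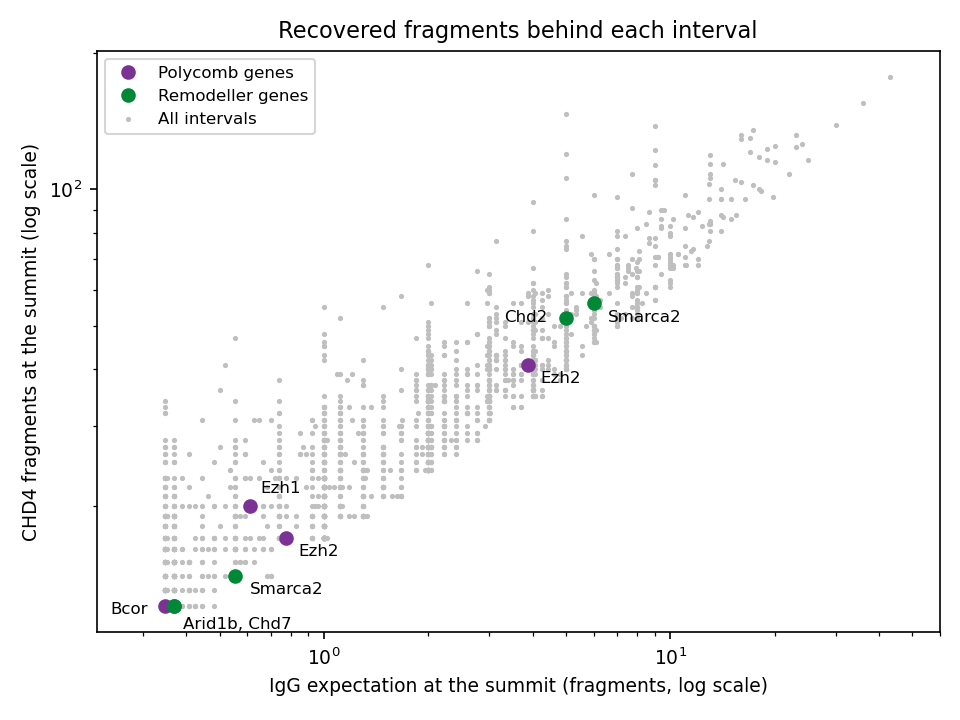
CHD4 fragments against the IgG expectation at the summit of each interval, both on log scales and both recovered from the authors' fold and p value. Grey points are all 1849 intervals; Bcor, Arid1b and Chd7 lie at the lower edge with 12 fragments, and Chd2, the Smarca2 promoter and the nearer Ezh2 interval lie at 41 to 56 fragments.

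Most genes of these complexes had no interval. Over 8 lists of Polycomb and remodeller genes, 14 of 126 genes were named, and 7 of the 14 are the genes above, which were chosen because they have intervals. Without these, 7 of 119 were named (5.88%, exact 95% binomial interval 2.4 to 11.7), close to the 6.1% of 21775 protein-coding genes. Without regard to distance, PRC2 had 2 of 13 genes, both the catalytic EZH subunits, and PRC1 had 3 of 28: Bcor, E2f6 and Usp7. The PR-DUB list, whose complex removes ubiquitin from histone H2A, had 0 of 6 (upper limit 45.9%), and the ISWI list 0 of 11 (upper limit 28.5%).

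The CHD family had 2 of 9 genes, SWI/SNF 4 of 28, INO80, SRCAP and EP400 complexes 2 of 19, and other genes related to SNF2 had 1 of 12. Among those that are not members, Actr8, an actin-related subunit of INO80, had a fold of 5.91 from 39 CHD4 fragments at 26 bp from its start. Yeats4, a histone reader of the SRCAP complex, had an interval over its start with a fold of 3.92 from 22 fragments. Ercc6, a SNF2 ATPase of transcription-coupled repair, had a fold of 4.43 at 88 bp. For SWI/SNF, Dpf3, a histone reader, had a fold of 5.20 in an intron at 21.8 kb, and Bicra, a scaffold of the non-canonical complex, had 4.75 at 1132 bp. E2f6, a DNA-binding subunit of a variant PRC1, had a fold of 3.73 at 29.5 kb. Usp7, a deubiquitinase found with variant PRC1, had 4.67 at 1274 bp. Neither the E2f6 nor the Usp7 interval overlapped the gene it is named for. The q value was 0.0419 at E2f6, 0.0222 at Usp7 and 0.0429 at Yeats4, and at most 0.01 at the other 4. Of the 14 named genes, 5 had an interval within 1 kb of the start (Chd2, Smarca2, Actr8, Yeats4 and Ercc6), while 42.0% of all 1328 named protein-coding genes had one. Among the 7 named genes that are not members, 3 had one.

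**Figure D4:**
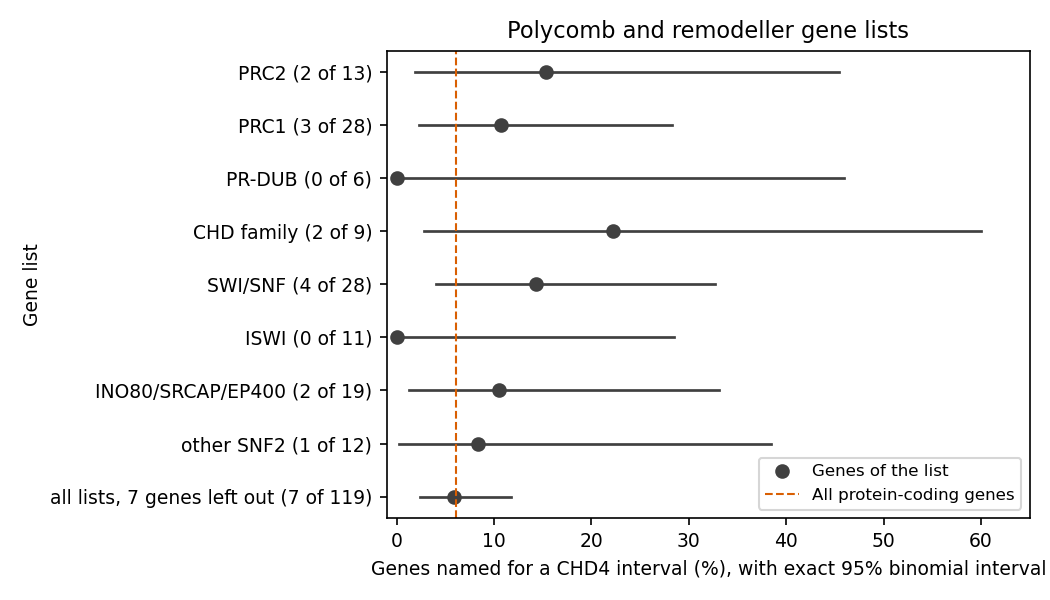
Share of genes in each list of Polycomb and remodeller genes that is named for a CHD4 interval, in percent, with exact 95% binomial intervals as lines. The dashed line is the share of all protein-coding genes, 6.1%; the lines of the 8 single lists include it, and these lists contain the 7 genes chosen for having intervals, which the bottom line, 7 of 119 genes, leaves out.

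Set beside the deacetylase and demethylase genes that work with CHD4, the 7 genes did not reach the highest folds. The highest fold of the set, 5.95 at Ezh1, compares with 9.18 at the Hdac1 promoter and 12.3 in the first intron of Kdm1a, and with 5.84 at the Hdac2 promoter and 2.58 at the other Kdm1a interval. The counting intervals of Ezh1 and Hdac1, 3.88 to 8.85 and 6.30 to 13.03, overlapped, while those of Ezh1 and the intronic Kdm1a interval, 9.38 to 15.8, did not. Hdac1, Hdac2 and Kdm1a all have intervals in the list, and other genes that work with CHD4 were not compared. These folds include the added 1, which lowers them most where the IgG expectation is low. That expectation was 0.609 at Ezh1, 0.369 at Hdac1 and 2.40 at Hdac2. At Kdm1a it was 1 for the intronic interval and 14 for the other. No test between these genes was made.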

How the data were processed

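CUT&Tag libraries with an antibody to CHD4 (2) and with IgG (2) were described by the labels. The submitters' processing notes name MACS2 2.1.2, Bowtie2 2.2.5 and Trim Galore 0.5.0, and the build mm10, without saying how replicates were combined. The authors deposited 1 peak list. Per the file headers it holds a fold (FC), the ratio of CHD4 to IgG at a summit, and its log2, both made by the authors. The deposited −log10 p and −log10 q columns had lost their headers and were identified by column order; the deposited score is 10 times −log10 q without decimals. The largest q was 0.0492. Positions, distances and classes are the authors' annotation.

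Rows sharing chromosome, start and end were collapsed, which gave 1849 intervals from 2066 summits, and an interval took the values of its summit of highest fold. Read depth is not stated. It was recovered from fold and p, taking fold as (scaled CHD4 fragments + 1)/(IgG expectation + 1) and p as a Poisson tail. Of 90001 scales, 0.429 gave a single whole-number solution at each of the 2066 summits (tolerance 0.0005 on −log10 p); whole-number fractions of that scale also solve, with multiplied fragment numbers. Intervals for fragments and folds cover counting error only.

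Genes were matched by numeric identifier to a RefSeq table of GRCm38.p6, which shares the coordinates of mm10, leaving out 340 genes placed below 3 Mb (Y excepted). Genes named in the text are the 7 members, genes of the 8 lists that have an interval, Hdac1, Hdac2 and Kdm1a, and genes that an interval overlaps; other neighbours were added after values were seen. Members and lists were chosen with earlier results of these data known. Python 3.11.15, NumPy 2.4.6, SciPy 1.17.1, pandas 2.3.3 and Matplotlib 3.10.9 were used. No test was run, since the list has no value per library and intervals are not replicates.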

Additional observations from a re-analysis of the deposited data

How the results depend on the processing

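The number of intervals for the 7 genes was 4 in place of 9 with a q of at most 0.01, 4 where an interval had to overlap one of the annotated genes, and 4 with at least 20 CHD4 fragments. The number of genes with an interval was likewise 4 in place of 7 under each of these settings. The 4 genes were Ezh1, Ezh2, Chd2 and Smarca2 under the q and fragment limits, and Ezh1, Bcor, Chd2 and Arid1b by overlap, so that Ezh1 and Chd2 passed in each. With summits as the unit there were 10.

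The number of intervals within 1 kb of a start was 2. It was 3 within 3 kb and 0 where the interval had to contain the start. Measured from the summit to the outer 5′ boundary of the gene, a setting chosen after seeing the data, it was 1 of 9, that of Smarca2, against 24.7% of all intervals. The median fold of Polycomb minus remodeller intervals was positive under all 9 alternatives, from 0.13 to 1.15, the highest being with a q of at most 0.01, which leaves 2 intervals in each class. Taking the summit of highest −log10 q or the mean over summits alters only Ezh1, which stays highest, so the difference of 0.13 could not move. The value without the added 1, 0.90, is a difference of ratios and not of folds. All settings reuse the same chosen intervals, and a difference between the classes was not tested. Without Ezh2 the difference was 0.77, and without Smarca2 it was 0.13.

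Without the added 1, a setting also chosen after seeing the data, the ratios of 3 intervals in place of 8 lay below the median of the list. Over all 8 lists, 14 genes were named, and 7 without the 7 members, likewise a later choice. An interval within 1 kb of a start was found for 5 of the 14, where 42.0% of all named protein-coding genes had one, and an interval with a q of at most 0.01 for 8, against 78.5% of them. Among the 7 named genes that are not members, these counts were 3 and 4. Over the annotated span of the gene, 9 of the 126 genes had an interval, against 4.28% of all protein-coding genes. These 9 include members chosen for having intervals, and without the 7 members 5 of 119 genes had one. No paired analysis was possible because the list gives no value for a single library, and for the same reason no replicate could be left out. Depth limits the comparison: 5 of the 9 intervals rest on 17 or fewer CHD4 fragments.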
